A study of Homo sapiens with 16 samples.

Results

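Hormone-starved T-47D cells were compared with hormone-starved Ishikawa cells before any estrogen was added. T-47D is an established human line from a ductal carcinoma of the breast, and Ishikawa is an established human line from an endometrioid adenocarcinoma of the endometrium, so each tissue is represented by a single tumour line. The comparison rests on the 4 libraries of the 0 h time point, 2 of each line, out of 16 libraries in the series. The other 12 libraries came from the same lines after 2, 4 or 8 h of 10 nM 17β-estradiol (E2). All 16 cultures had spent 3 days in phenol-red-free medium with charcoal-stripped serum per the labels, whereas the general cell culture methods of the study give a longer hormone-free period. The 0 h cells received vehicle only per the study's methods. Poly(A) RNA was sequenced from directional libraries and counted per gene. Because the lines differ in tissue, donor and culture history at once, these sources of a difference cannot be told apart. The labels do not say whether the 2 replicates were separate cultures, so each p-value measures only the spread between these libraries.

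Both lines carry estrogen receptor α, encoded by ESR1, a transcription factor that E2 activates in breast and endometrial epithelium. Which sites the receptor uses depends on the other factors a cell holds. In mammary luminal cells GATA3, FOXA1 and the AP-2 factors are known to open such sites, and PGR, GREB1 and TFF1 are classic targets there. The endometrium arises from the Müllerian duct, whose epithelium is marked by PAX8, SOX17, EMX2 and the posterior HOX genes. The values below describe how far the deposited libraries follow these marks of origin, and where they do not.

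Among the identity genes, SPDEF, an ETS factor of luminal secretory cells, stood on the T-47D side, and PAX8 and EMX2 stood on the Ishikawa side. GSTP1, a glutathione transferase, is shown with them because its counts were high in Ishikawa and near 0 in T-47D. Their promoters are given here as RefSeq windows on GRCh38.p14, from 250 bases before to 50 bases after the annotated start, 5′ to 3′ on the strand of the gene, with each CG dinucleotide in capitals. The windows are chr6:34556280-34556579 on the minus strand for SPDEF, chr2:113278872-113279171 on the minus strand for PAX8, chr10:117542496-117542795 on the plus strand for EMX2 and chr11:67583562-67583861 on the plus strand for GSTP1.
SPDEF: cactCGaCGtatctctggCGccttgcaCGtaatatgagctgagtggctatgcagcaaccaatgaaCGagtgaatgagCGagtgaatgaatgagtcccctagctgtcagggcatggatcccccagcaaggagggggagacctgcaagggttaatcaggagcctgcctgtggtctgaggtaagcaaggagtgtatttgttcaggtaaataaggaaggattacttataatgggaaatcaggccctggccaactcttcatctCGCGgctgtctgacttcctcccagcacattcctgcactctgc
PAX8: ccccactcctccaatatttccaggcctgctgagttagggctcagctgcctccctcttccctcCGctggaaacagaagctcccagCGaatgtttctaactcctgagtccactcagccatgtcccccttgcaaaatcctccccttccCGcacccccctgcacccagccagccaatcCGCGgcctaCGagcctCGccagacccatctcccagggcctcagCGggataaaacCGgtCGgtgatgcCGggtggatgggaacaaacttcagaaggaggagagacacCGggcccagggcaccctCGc
EMX2: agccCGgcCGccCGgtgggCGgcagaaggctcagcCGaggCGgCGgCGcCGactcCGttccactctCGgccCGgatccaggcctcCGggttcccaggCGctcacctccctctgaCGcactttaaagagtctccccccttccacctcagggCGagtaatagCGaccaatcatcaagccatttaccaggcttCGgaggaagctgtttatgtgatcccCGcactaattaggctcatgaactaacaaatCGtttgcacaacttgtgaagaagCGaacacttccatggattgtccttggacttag
GSTP1: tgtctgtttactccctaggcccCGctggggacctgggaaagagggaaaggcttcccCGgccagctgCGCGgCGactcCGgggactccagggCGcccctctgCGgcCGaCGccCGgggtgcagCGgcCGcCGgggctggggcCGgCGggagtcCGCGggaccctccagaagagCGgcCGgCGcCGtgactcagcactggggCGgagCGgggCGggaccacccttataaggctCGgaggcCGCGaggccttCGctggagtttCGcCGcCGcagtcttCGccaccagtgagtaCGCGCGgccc
The SPDEF window held 8 CG dinucleotides, the PAX8 window 13, the EMX2 window 21 and the GSTP1 window 36. Over all 35116 RefSeq promoter windows the median was 14. At least as many CG dinucleotides as in these windows were held by 60.7%, 51.7%, 39.5% and 12.7% of them, in that order. Genes of low and of high CG content therefore lie among those at or near 0 in 1 line. The counts say nothing about the methylation of these bases, which was not measured here.

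The 4 libraries held 41223813 to 45672920 counts, and 17895 to 18455 genes had at least 1 count in a library. Values are given as CPM, counts brought to the same library total after scaling by the trimmed mean of M-values, whose factors ran from 0.965 to 1.04. RPKM, which divides CPM by the exon length of the gene in kilobases, is used where 2 genes are set side by side. Of the counts between 1 and 10, 71.6% to 72.9% were even numbers, so single counts may not be single molecules. The intervals below cover counting error only and treat each count as independent, so they are too narrow if counts are not. The SE printed with a log2 fold change comes from the fit and is too small for genes near 0 in either line. MSX2, with 2 and 0 counts in Ishikawa, had an SE of 0.20 on a log2 fold change of 12.4. Its exact 95% interval, in contrast, ran from 1724 to 51445-fold. The SEs of GATA3, SPDEF, PAX8, GSTP1 and similar genes are therefore not a measure of how precise their folds are. The chi-square per gene between replicates was 11.4 in Ishikawa and 6.93 in T-47D, above sampling noise, and no library was a copy of another. The common biological coefficient of variation was 6.89%.

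The transcriptomes of the 2 lines differed at most genes. Of 16239 genes tested, 13213 (81.4%) passed an adjusted p (Benjamini-Hochberg, edgeR quasi-likelihood test) under 0.05, 6466 higher in T-47D and 6747 higher in Ishikawa. With replicates this close, small differences pass, so genes are counted below where they also differed at least 2-fold. On that rule 3716 genes (22.9% of those tested) were higher in T-47D and 3769 (23.2%) were higher in Ishikawa, and the median log2 fold change over all tested genes was -0.03. Positive log2 fold changes below mean higher in T-47D. At least 8-fold differences held for 1281 and 1484 genes, and at least 128-fold differences for 438 and 574. Any list of genes is therefore read against about 23 in 100 genes on each side.

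**Figure D1:**
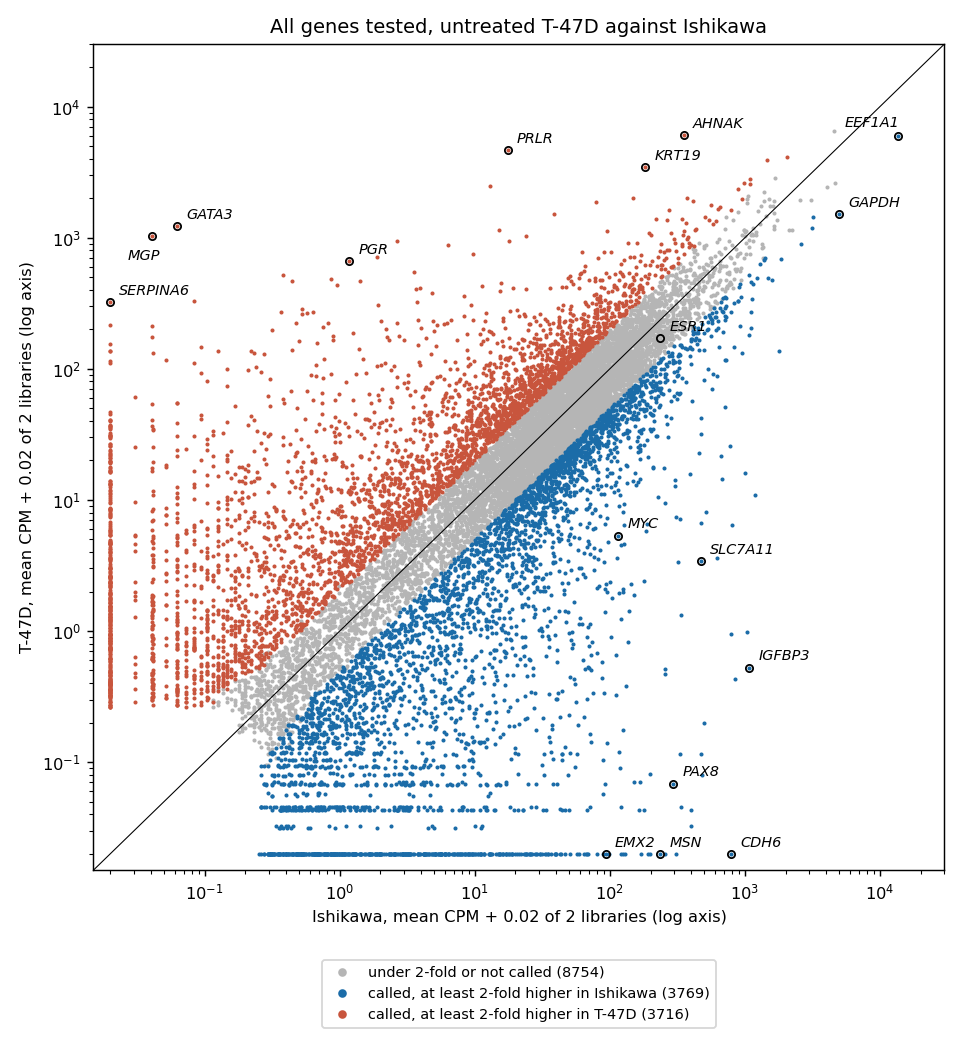
Mean CPM of each tested gene in the 2 Ishikawa libraries (horizontal) and the 2 T-47D libraries (vertical), both with 0.02 added and on log axes, coloured by whether the gene was called at least 2-fold higher in Ishikawa (3769) or T-47D (3716). ESR1 lies close to the diagonal, while PGR, GATA3 and PRLR lie far above it and CDH6, MSN and EMX2 lie at the lower edge with no count in T-47D.

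The steroid receptors set the lines apart much less by ESR1 than by PGR. ESR1 (chr6:151977826-152450754 on hg19) stood at 242 and 229 CPM in the 2 Ishikawa libraries and at 172 and 169 CPM in the 2 T-47D libraries. The groups did not overlap, and Ishikawa was the higher by less than 2-fold (log2 fold change -0.47, SE 0.057, adjusted p = 2.56e-05). PGR, the progesterone receptor gene (chr11:100900355-101000544), stood at 1.34 and 0.966 CPM in Ishikawa and at 667 and 666 CPM in T-47D (log2 fold change 9.17, SE 0.1, adjusted p = 1.39e-12). Per kilobase of exon PGR in T-47D stood at 45.3 RPKM against 12.4 for ESR1, whereas in Ishikawa PGR stood at 0.0785 RPKM against 17.2 for ESR1.

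The remaining receptors differed less or leaned to Ishikawa. NR3C2, the mineralocorticoid receptor gene, was the higher in Ishikawa at 19.5 and 19 CPM against 8.39 and 7.99 in T-47D (log2 fold change -1.23, SE 0.11, adjusted p = 2.64e-06). NR3C1, the glucocorticoid receptor gene, stood at 71 and 60.3 CPM in Ishikawa and 50.5 and 47.3 in T-47D, a difference under 2-fold (log2 fold change -0.43, SE 0.09, adjusted p = 0.00135). GPER1, a membrane receptor reported to bind estrogen, was low in both, at 1.83 and 1.64 CPM in Ishikawa and 0.326 and 0.201 in T-47D (log2 fold change -2.69, SE 0.35, adjusted p = 4.57e-05). ESR2, the gene of estrogen receptor β, did not pass the test: its libraries overlapped, at 0.34 and 0.798 CPM in Ishikawa and 0.512 and 0.955 in T-47D (log2 fold change 0.36, SE 0.48, adjusted p = 0.504). ESRRA, an orphan receptor gene, stood at 35.8 and 40.4 CPM in Ishikawa against 44.8 and 44.6 in T-47D, and its call (log2 fold change 0.23, SE 0.086, adjusted p = 0.0293) was lost without scaling factors (adjusted p = 0.205), without Ishikawa replicate 1 (0.121) and without either T-47D replicate (0.126 and 0.0997). ESRRB and ESRRG had too few counts to be tested.

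Genes of estrogen receptor cofactors differed less than most lists. Of 16 tested, 2 were called at least 2-fold higher in T-47D and 2 in Ishikawa (all genes: 22.9% and 23.2%). Their median log2 fold change was -0.21. NCOA3, a p160 coactivator gene amplified in some breast tumours, stood at 88.4 and 84.2 CPM in Ishikawa and 242 and 242 in T-47D (log2 fold change 1.49), and its relative NCOA2 differed by 1.02. NCOA7 and CARM1, an arginine methyltransferase gene, were the higher in Ishikawa, by log2 fold changes of -2.75 and -1.14. The other 12 differed by less than 2-fold or did not pass the test, so the cofactor genes lay nearer to level than the genes of the tissue lists. NCOA3, CARM1 and ESRRA share exonic positions with a gene on the other strand, and so do the other tested genes of the text that follow: CCND1, CCND2, CDKN2A, CLDN7, DKK1, EEF1A1, EGFR, EMX2, ERBB2, FOXA1, FOXM1, FZD4, FZD6, HOXA10, HOXB2, HOXB3, HOXB6, HOXC10, HOXC13, HOXC6, HOXD8, IFIT2, INA, KRT18, KRT8, MCM7, MEST, MGP, MSH6, MX1, MYC, NFE2L2, NRG4, PAX8, PEG10, RARA, RNF43, SLC7A11, STRA6, TAP1, TFAP2A, TGFB1, VIM and ZEB1. How strand entered the counting is not given in the sources used here, so reads of such partners may not be told apart.

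**Figure D2:**
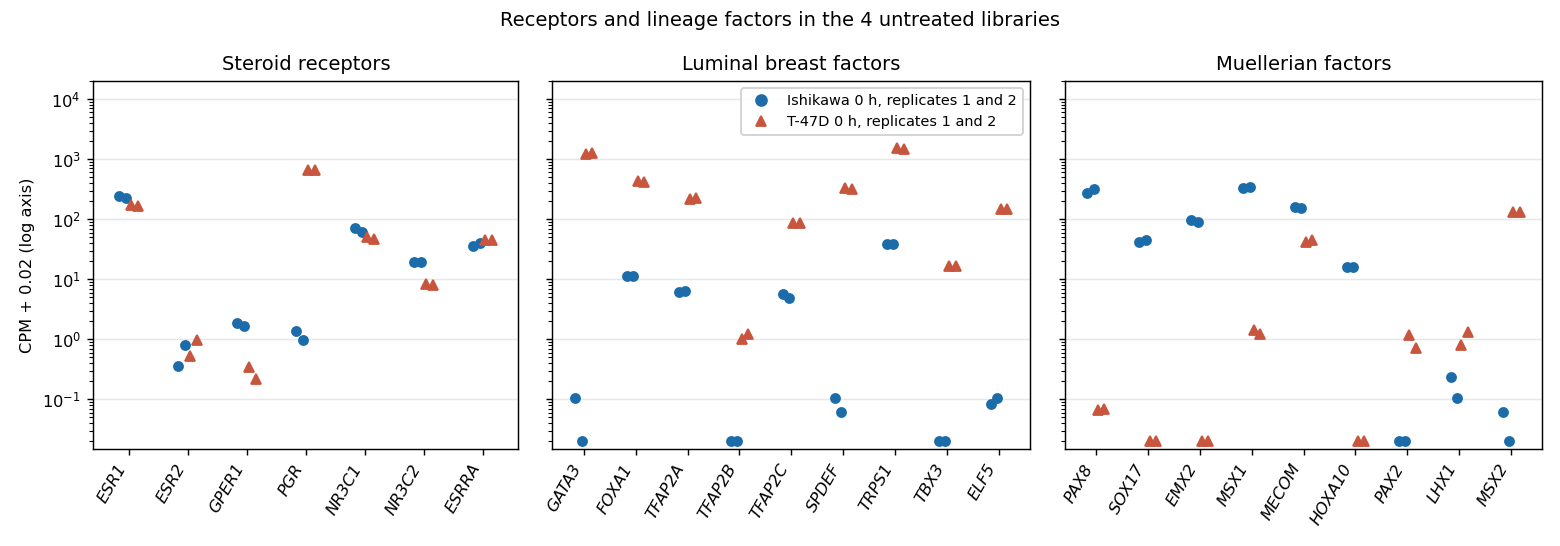
CPM with 0.02 added (log axis) of 7 steroid receptor genes, 9 luminal breast factors and 9 Müllerian factors, with 1 point for each of the 2 Ishikawa (circles) and 2 T-47D (triangles) libraries. ESR1 lies between 169 and 242 CPM in all 4 libraries, PGR and the luminal factors are high in T-47D, and PAX8, SOX17 and EMX2 are high in Ishikawa, while PAX2, LHX1 and MSX2 go the other way.

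T-47D carried nearly the whole luminal breast list. Of its 26 members 24 were tested, and 22 were called at least 2-fold higher in T-47D and 1 in Ishikawa (all genes: 22.9% and 23.2%). The median log2 fold change was 7.22, or 5.79 with genes absent from 1 line set at their bounds. GATA3, the zinc-finger factor of luminal cells (chr10:8087341-8117161), had 0.0851 and 0 CPM in the Ishikawa libraries, or 4 and 0 counts, against 1206 and 1248 CPM in T-47D (log2 fold change 14.73, SE 0.17, adjusted p = 1.41e-12). FOXA1, a pioneer factor gene (chr14:38058757-38065264), was expressed in both lines, at 11.2 and 11.5 CPM in Ishikawa and 435 and 417 in T-47D (log2 fold change 5.23, SE 0.069, adjusted p = 2.47e-12). TRPS1, a GATA-type repressor gene, was also present in both, at 38.1 and 39.4 CPM in Ishikawa against 1525 and 1489 in T-47D (log2 fold change 5.28). The AP-2 genes followed, with TFAP2A at 6.17 and 6.34 CPM in Ishikawa and 216 and 227 in T-47D (log2 fold change 5.15, SE 0.078, adjusted p = 5.56e-12) and TFAP2C at 5.61 and 4.85 CPM in Ishikawa against 87.8 and 86.8 in T-47D (log2 fold change 4.06). FOXA1 and the AP-2 genes were thus low but measurable in Ishikawa, where GATA3 was near 0.

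Several luminal factors were at or near 0 in Ishikawa. SPDEF, whose promoter is shown above, had 0.0851 and 0.042 CPM in Ishikawa against 331 and 322 in T-47D (log2 fold change 12.27, SE 0.14, adjusted p = 1.39e-12). ELF5, an ETS factor of milk-producing cells, stood at 0.0638 and 0.084 CPM in Ishikawa against 146 and 148 in T-47D (log2 fold change 10.90). TBX3, a T-box factor gene, had no count in Ishikawa and 16.8 and 16.6 CPM in T-47D, at least 264-fold more with the floor set at 3 counts per library. Secreted and surface products followed the factors. PRLR, the prolactin receptor gene, stood at 19.1 and 15.8 CPM in Ishikawa and 4771 and 4583 in T-47D (log2 fold change 8.07, SE 0.092, adjusted p = 1.41e-12). PIP, a secretory protein gene of apocrine cells, had no count in Ishikawa and 267 and 167 CPM in T-47D, at least 3419.9-fold more, and TFF3, a trefoil factor gene, at least 569.8-fold more at 39.3 and 33 CPM. AGR2, a disulfide isomerase gene of secretory cells, stood at 2.89 and 2.41 CPM in Ishikawa against 967 and 929.8 in T-47D (log2 fold change 8.48).

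The list had exceptions. SCGB1D2, a lipophilin gene of breast and endometrial secretions, was the higher in Ishikawa at 3.79 and 3.44 CPM against 0.0932 and 0.0503 (log2 fold change -5.59, SE 0.37, adjusted p = 2.01e-07). SLC39A6, a zinc transporter gene widely used as a luminal marker, was nearly level at 191 and 179 CPM in Ishikawa against 166 and 159 in T-47D (log2 fold change -0.18, SE 0.06, adjusted p = 0.0174), and the call was lost without Ishikawa replicate 1 (adjusted p = 0.0554) or either T-47D replicate (0.0626 and 0.216). NAT1 differed by a log2 fold change of 1.10 and XBP1 by 2.11. ANKRD30A had no count in any of the 4 libraries, and SCGB2A2, the mammaglobin gene, had no count in 3 of them. T-47D therefore carried the luminal transcription factors, while ANKRD30A was not detectable at this depth and SCGB2A2 had 2 counts in T-47D replicate 2.

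Ishikawa carried most, but not all, of the Müllerian and endometrial list. Of its members 21 were tested, and 15 were called at least 2-fold higher in Ishikawa and 3 in T-47D (all genes: 23.2% and 22.9%). The median log2 fold change was -5.31, or -3.75 with bounds. PAX8, a paired-box factor of Müllerian epithelium (chr2:113973574-114036498 on hg19), stood at 269.9 and 321 CPM in Ishikawa and 0.0466 and 0.0503 in T-47D (log2 fold change -12.49, SE 0.19, adjusted p = 6.00e-12). EMX2, a homeobox gene needed for the urogenital tract (chr10:119301956-119309057), had 95.8 and 90.1 CPM in Ishikawa and no count in T-47D, at least 1279.7-fold less. SOX17, a factor of endometrial gland epithelium, had 42.5 and 44.2 CPM in Ishikawa and no count in T-47D, at least 597-fold less. MSX1, a homeobox gene of the uterine epithelium, stood at 333 and 345 CPM in Ishikawa against 1.42 and 1.21 in T-47D (log2 fold change -8.00, SE 0.096, adjusted p = 1.46e-12), and MECOM at 159 and 155 CPM in Ishikawa against 41.9 and 45.9 in T-47D (log2 fold change -1.84).

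Other Müllerian genes were absent from Ishikawa or went against the label. MSX2, the close relative of MSX1, had 2 and 0 counts in Ishikawa and 131 and 132 CPM in T-47D, a ratio of 6229.5-fold (95% interval 1724 to 51445). PAX2 had no count in Ishikawa and 1.16 and 0.704 CPM in T-47D, and LHX1 stood at 0.213 and 0.084 CPM in Ishikawa against 0.769 and 1.28 in T-47D. FOXA2 and PAEP, the glycodelin gene of the secretory endometrium, had no count in either Ishikawa library. MUC16, the CA125 mucin gene, followed the label at 12.6 and 15.5 CPM in Ishikawa against 0.186 and 0.0503 in T-47D (log2 fold change -6.83). The label of Ishikawa thus rests here on PAX8, SOX17, EMX2, MSX1 and MUC16, and not on PAX2 or FOXA2.

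The HOX clusters divided the lines by cluster. HOX genes encode homeodomain factors that record the position of a tissue along the body axis, and neighbours in a cluster are usually expressed together. HOXA genes were higher in Ishikawa, all 10 tested members by at least 2-fold (all genes: 23.2%). The median log2 fold change was -5.79 (-3.73 with bounds). HOXA10, required in the uterus for implantation, had 16.2 and 16.2 CPM in Ishikawa and no count in T-47D, at least 223-fold less. HOXD genes leaned the same way in 8 of 9 (all genes: 23.2%), with a median of -10.12 (-5.95 with bounds). HOXD9 had 26.1 and 25.8 CPM in Ishikawa and no count in T-47D, at least 357-fold less, and HOXD8 at least 259.6-fold less. HOXD12, between 2 genes that were seen in Ishikawa, went the other way at 0.0851 and 0.126 CPM in Ishikawa and 1.19 and 1.68 in T-47D (log2 fold change 3.73, SE 0.45, adjusted p = 2.24e-05).

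HOXB was split and HOXC went to T-47D. In HOXB 7 of 9 tested genes were at least 2-fold higher in Ishikawa (all genes: 23.2%). HOXB6 was among them at 28.7 and 36.5 CPM in Ishikawa against 1.37 and 1.46 in T-47D. So was HOXB9, at 20.4 and 22.9 against 0.629 and 0.553 CPM. HOXB3 stood at 13.2 and 15.3 CPM in Ishikawa against 8.06 and 9.63 in T-47D (log2 fold change -0.69). HOXB2, next to it in the cluster, had 0 and 2 counts in Ishikawa and 42.7 and 38.2 CPM in T-47D, a ratio of 1919.9-fold (95% interval 531 to 15860.0). In HOXC all 9 genes were at least 2-fold higher in T-47D (all genes: 22.9%). The median log2 fold change was 7.33 (5.55 with bounds). HOXC10 stood at 1.59 and 0.882 CPM in Ishikawa and 185 and 190.1 in T-47D (log2 fold change 7.24, SE 0.15, adjusted p = 4.28e-11), and its 79.1 RPKM in T-47D was the highest level per kilobase of any HOX gene in either line. HOXC13 stood at 0.383 and 0.336 CPM in Ishikawa against 56.3 and 60.6 in T-47D (log2 fold change 7.33). HOTAIR, a noncoding RNA gene of the HOXC locus, had 3 counts or fewer in each Ishikawa library and 32.7 and 37.1 CPM in T-47D. HOXC6 shares exonic positions on its own strand with HOXC4 and HOXC9, and HOXB3 with HOXB4 and HOXB6. Many HOX genes also overlap an antisense transcript. The single values of all these genes are therefore less certain than the direction of a cluster.

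**Figure D3:**
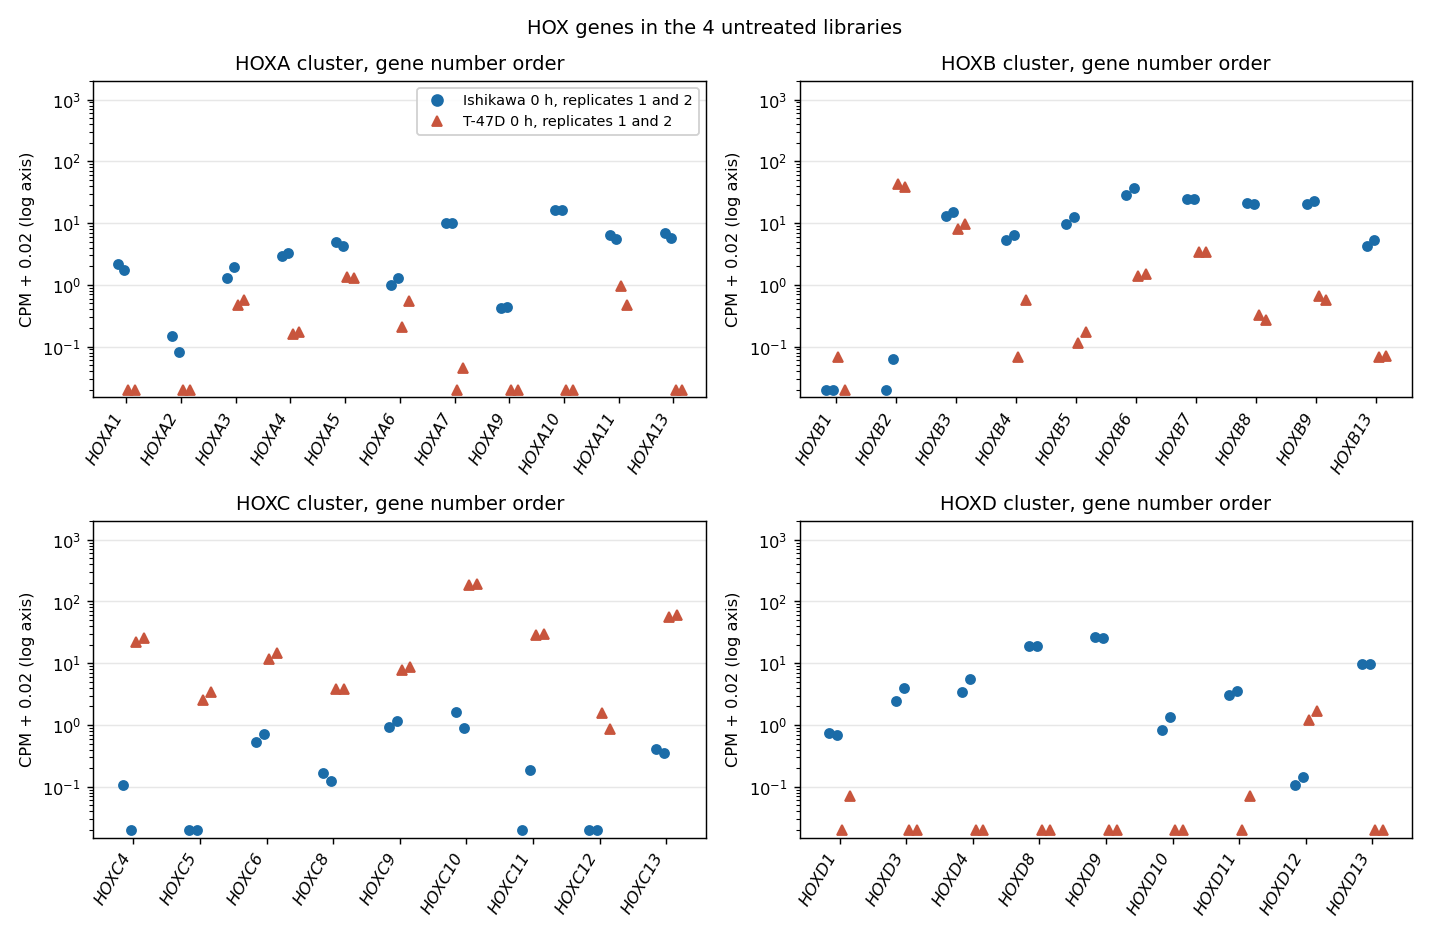
CPM with 0.02 added (log axis) of the HOX genes in the order of their numbers, 1 panel per cluster, with 1 point for each of the 2 Ishikawa (circles) and 2 T-47D (triangles) libraries. The HOXA and HOXD panels are higher in Ishikawa except HOXD12, HOXC is higher in T-47D throughout, and HOXB splits between HOXB2 and the rest.

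Epithelial genes were expressed in both lines and mostly at higher levels in T-47D. All 5 tested simple keratin genes were at least 2-fold higher in T-47D (all genes: 22.9%). KRT8 and KRT18, the keratin pair of simple epithelia, were measured in both, KRT8 at 1447 and 1448 CPM in Ishikawa and 4032 and 3839 in T-47D and KRT18 at 529.5 and 558 CPM in Ishikawa against 1386 and 1351 in T-47D. KRT19 showed a larger gap, at 180.4 and 185 CPM in Ishikawa against 3530.2 and 3394 in T-47D (log2 fold change 4.24, SE 0.051, adjusted p = 1.46e-12). Among stratified keratins 6 of 11 were called at least 2-fold higher in T-47D and 4 in Ishikawa (all genes: 22.9% and 23.2%). On the T-47D side KRT15, a basal keratin gene, stood at 0.298 and 0.42 CPM in Ishikawa against 7.52 and 8.75 in T-47D (log2 fold change 4.49, SE 0.24, adjusted p = 4.20e-08), KRT86, a hair keratin gene, at 2.28 and 3.02 against 9.27 and 9.55 (log2 fold change 1.83), and KRT4 had no count in Ishikawa and 3.07 and 2.61 CPM in T-47D, at least 44.9-fold more. On the Ishikawa side KRT5, also a basal keratin gene, had 41.3 and 44.6 CPM in Ishikawa and 1 count in each T-47D library, a ratio of 1777-fold (95% interval 492 to 14676), and KRT17 stood at 29.1 and 32.8 CPM in Ishikawa against 1.09 and 0.955 in T-47D (log2 fold change -4.91). Keratin genes resemble each other, and the handling of reads with several alignments is not stated, so the low values are uncertain.

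Of 16 epithelial-state genes 11 were at least 2-fold higher in T-47D and none in Ishikawa (all genes: 22.9% and 23.2%). The median log2 fold change was 1.60. CDH1, the E-cadherin gene, stood at 375 and 362 CPM in Ishikawa and 1303 and 1287 in T-47D (log2 fold change 1.81, SE 0.048, adjusted p = 2.36e-10). The claudin gene CLDN1 stood at 77.6 and 80.6 CPM in Ishikawa against 1825 and 1892 in T-47D (log2 fold change 4.55). EPCAM was the higher in Ishikawa by less than 2-fold, at 352 and 328 CPM against 219.9 and 203 (log2 fold change -0.69, SE 0.062, adjusted p = 2.41e-06), and CLDN7 likewise (log2 fold change -0.67).

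The mesenchymal list leaned to Ishikawa without vimentin. Of 14 tested, 10 were called at least 2-fold higher in Ishikawa and 2 in T-47D (all genes: 23.2% and 22.9%). The median log2 fold change was -4.03 (-3.44 with bounds). CDH2, the N-cadherin gene, had 508 and 484 CPM in Ishikawa and 0.233 and 0.126 in T-47D (log2 fold change -11.40, SE 0.13, adjusted p = 1.39e-12). MSN, the moesin gene that links actin to the membrane, had 238 and 236 CPM in Ishikawa and no count in T-47D, at least 3259.7-fold less. CAV1, the caveolin gene, stood at 26.9 and 22.5 CPM in Ishikawa against 0.0466 and 0.0503 in T-47D (log2 fold change -8.91), and CAV2 had no count in T-47D. VIM, the vimentin gene, was low in all 4 libraries, at 1.72 and 1.72 CPM in Ishikawa and 2.05 and 1.76 in T-47D (log2 fold change 0.15, SE 0.23, adjusted p = 0.566). ZEB1 and SNAI1, repressors of CDH1, were low in Ishikawa, ZEB1 at 1.72 and 1.87 CPM and SNAI1 at 2.55 and 2.39 CPM, and lower in T-47D. S100A4 and LGALS1 were the higher in T-47D, by log2 fold changes of 1.34 and 1.25. Per kilobase, CDH2 in Ishikawa stood at 57.8 RPKM, close to the 60.6 RPKM of CDH1, so Ishikawa held transcripts of both cadherins.

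Markers of other cell types were mostly low. The 8 leukocyte markers, of which 2 were tested and 1 was called at least 2-fold higher in T-47D, summed to 2.79 and 3.51 CPM in Ishikawa and 5.22 and 6.13 CPM in T-47D, and PTPRC, the gene of the pan-leukocyte antigen CD45, stood at no more than 0.101 CPM in any library. PECAM1 and CDH5, defining endothelial genes, had at most 2 counts in any library. The 8 endothelial markers summed to 19.2 and 20.9 CPM in Ishikawa and 5.68 and 5.68 CPM in T-47D. Of 3 endothelial markers tested, 2 were called at least 2-fold higher in Ishikawa and 0 in T-47D. The 6 endometrial stroma markers summed to 14.8 and 15.5 CPM in Ishikawa and 4.36 and 4.12 CPM in T-47D, with 4 of 5 tested called at least 2-fold higher in Ishikawa. Of 6 tested myoepithelial markers 5 were at least 2-fold higher in Ishikawa, among them KRT5, CNN1 at 20.6 and 19.3 CPM against 0.0932 and 0.101, and TP63 at 8.27 and 7.43 against 1.21 and 1.33 CPM, while KRT14 was near 0 in both. COL1A1 was expressed in both lines, at 246 and 270.5 CPM in Ishikawa against 87.4 and 93.7 in T-47D, LUM had 6.48 and 8.4 CPM in T-47D and no count in Ishikawa, and PDGFRB and POSTN were at or near 0. The 8 fibroblast markers, COL1A1 included, summed to 254 and 279 CPM in Ishikawa and 95.6 and 104 CPM in T-47D. Of 6 fibroblast markers tested, 4 were called at least 2-fold higher in Ishikawa and 2 in T-47D. Over all genes tested, 23.2% were at least 2-fold higher in Ishikawa and 22.9% in T-47D. The part of such markers in other results was not tested. In bulk RNA, fewer cells of a type and less RNA per cell cannot be told apart.

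Growth-factor receptors and their ligands were divided between the lines. ERBB receptors bind EGF-like ligands and signal as dimers, with ERBB3 and ERBB4 binding neuregulins. ERBB2 stood at 161 and 178 CPM in Ishikawa and 725 and 739 in T-47D (log2 fold change 2.11, SE 0.061, adjusted p = 4.10e-10), ERBB3 at 136 and 138 CPM in Ishikawa against 899.8 and 917 in T-47D (log2 fold change 2.73, SE 0.051, adjusted p = 2.24e-11), and ERBB4 at 0.128 and 0.063 CPM in Ishikawa against 36.5 and 30.4 in T-47D (log2 fold change 8.42, SE 0.24, adjusted p = 3.59e-10). EGFR was nearly level, at 49.5 and 42.9 CPM in Ishikawa against 37.5 and 40.1 in T-47D (log2 fold change -0.25, SE 0.092, adjusted p = 0.0267), and the call was lost without Ishikawa replicate 1 (adjusted p = 0.146) or either T-47D replicate (0.188 and 0.0527). The ligands TGFA, NRG1, NRG4 and BTC were at least 2-fold higher in Ishikawa, and EGF and AREG in T-47D. NRG1, a ligand of ERBB3 and ERBB4, had 30.9 and 36.1 CPM in Ishikawa and no count in T-47D, at least 461-fold less. TGFA, a ligand of EGFR, stood at 155 and 155 CPM in Ishikawa and 13.6 and 12.4 in T-47D (log2 fold change -3.58, SE 0.078, adjusted p = 5.84e-11). Of 12 genes of this list tested, 5 were at least 2-fold higher in T-47D and 4 in Ishikawa (all genes: 22.9% and 23.2%). Those higher in T-47D were the receptor genes ERBB2, ERBB3 and ERBB4 and the ligand genes EGF and AREG. Those higher in Ishikawa were all ligand genes.

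Of 15 other receptor tyrosine kinase genes tested, 5 were at least 2-fold higher in T-47D and 6 in Ishikawa (all genes: 22.9% and 23.2%). FGFR4 stood at 21 and 23.3 CPM in Ishikawa and 135 and 122 in T-47D (log2 fold change 2.53). KIT, the stem cell factor receptor gene, had 38 and 31.2 CPM in Ishikawa and no count in T-47D, at least 476-fold less, and EPHA2 stood at 116 and 127 CPM in Ishikawa against 1.14 and 1.28 in T-47D (log2 fold change -6.64). MET, the hepatocyte growth factor receptor gene, stood at 19.8 and 18.6 CPM in Ishikawa against 1.63 and 2.64 in T-47D (log2 fold change -3.17).

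Insulin-like growth factor (IGF) signalling showed opposite paralogs. IGF1R was the higher in T-47D, at 26.9 and 28.2 CPM in Ishikawa and 166 and 176 in T-47D (log2 fold change 2.63, SE 0.07, adjusted p = 2.26e-10), and INSR, the insulin receptor gene, the higher in Ishikawa, at 47.9 and 46.2 CPM in Ishikawa against 11.3 and 10.9 in T-47D (log2 fold change -2.08, SE 0.089, adjusted p = 7.68e-09). The adaptor genes IRS1 and IRS2 split the same way, with log2 fold changes of 1.44 and -2.90. IGFBP3, a secreted IGF-binding protein gene, had 1105 and 1043 CPM in Ishikawa and 0.559 and 0.453 in T-47D (log2 fold change -11.04, SE 0.1, adjusted p = 8.94e-13), and IGFBP4 had 0.383 and 0.84 in Ishikawa and 278 and 262 in T-47D (log2 fold change 8.78, SE 0.16, adjusted p = 1.64e-11). IGFBP5 was expressed in both, at 376 and 365 CPM in Ishikawa against 2078 and 1925 in T-47D. The ligand genes IGF1 and IGF2 had too few counts to be tested.

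WNT ligands signal through FZD receptors to β-catenin and, when that arm is active, raise negative-feedback genes, of which AXIN2, NKD1, NOTUM, SP5, ZNRF3, RNF43 and DKK1 are on the list. Of 38 WNT pathway genes tested, 20 were at least 2-fold higher in Ishikawa and 12 in T-47D (all genes: 23.2% and 22.9%). The median log2 fold change of the list was -1.58. Of these 7 feedback genes, AXIN2, NKD1, NOTUM, SP5 and ZNRF3 were at least 2-fold higher in Ishikawa, and RNF43 and DKK1 at least 2-fold higher in T-47D. AXIN2 stood at 8.02 and 7.16 CPM in Ishikawa and 0.419 and 0.226 in T-47D (log2 fold change -4.53, SE 0.27, adjusted p = 8.35e-08), and ZNRF3 at 37.7 and 39.2 CPM in Ishikawa against 7.13 and 7.72 in T-47D (log2 fold change -2.37, SE 0.1, adjusted p = 6.69e-09), while NOTUM, NKD1 and SP5 were low in both and NKD1 did not pass in DESeq2 (adjusted p = 0.145). RNF43, a close relative of ZNRF3, stood at 2.08 and 3.09 CPM in Ishikawa against 25.3 and 26.5 in T-47D (log2 fold change 3.32, SE 0.17, adjusted p = 2.60e-08). DKK1, a secreted WNT antagonist gene, stood at 0.191 and 0.336 CPM in Ishikawa against 2.87 and 3.17 in T-47D (log2 fold change 3.50, SE 0.32, adjusted p = 2.71e-06). CTNNB1, the β-catenin gene, was nearly level at 549 and 524 CPM in Ishikawa against 619 and 626 in T-47D (log2 fold change 0.21, a call lost on library totals without scaling factors, where adjusted p = 0.0518). Among ligands, WNT7A, needed for uterine patterning, had 39.9 and 45.3 CPM in Ishikawa and no count in T-47D, at least 586-fold less, and WNT4, WNT11 and WNT7B were the higher in T-47D, WNT7B at 8.83 and 9.72 CPM in Ishikawa against 44.7 and 47.8 in T-47D. Among receptors, FZD6 had 176 and 155 CPM in Ishikawa and 2 and 0 counts in T-47D, a ratio of 6829-fold (95% interval 1890.1 to 56392), whereas FZD4 stood at 16.1 and 14.5 CPM in Ishikawa against 124 and 124 in T-47D (log2 fold change 3.02, SE 0.08, adjusted p = 2.26e-10).

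Of 17 Notch genes tested 6 were at least 2-fold higher in Ishikawa and 2 in T-47D (all genes: 23.2% and 22.9%). NOTCH1 stood at 192 and 204 CPM in Ishikawa and 34.5 and 35 in T-47D (log2 fold change -2.51, SE 0.067, adjusted p = 2.27e-10), and its ligand gene JAG1 at 329 and 335 CPM in Ishikawa against 7.36 and 6.81 in T-47D (log2 fold change -5.55, SE 0.076, adjusted p = 3.03e-12). NOTCH2 and NOTCH3 leaned to T-47D by less than 2-fold, with log2 fold changes of 0.91 and 0.55. HES1, a common Notch target, stood at 68.7 and 73.3 CPM in Ishikawa against 45.6 and 49.6 in T-47D (log2 fold change -0.58).

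In the BMP and TGF-β pathway 11 of 29 genes were at least 2-fold higher in each line (all genes: 22.9% in T-47D and 23.2% in Ishikawa). TGFBR2, the type II TGF-β receptor gene that the ligands need, had 57.6 and 57.2 CPM in Ishikawa and 0.14 and 0.0503 in T-47D (log2 fold change -9.17, SE 0.19, adjusted p = 4.86e-11), and TGFBR1 went the other way at 66.7 and 54.5 CPM in Ishikawa against 152 and 145 in T-47D (log2 fold change 1.29, SE 0.091, adjusted p = 3.45e-07). The ligand genes divided, with TGFB1 at 66.3 and 69.7 CPM in Ishikawa against 0.722 and 1.03 in T-47D (log2 fold change -6.28, SE 0.14, adjusted p = 6.97e-11) and TGFB3 at 8.85 and 9.97 CPM in Ishikawa against 309.9 and 306 in T-47D (log2 fold change 5.03, SE 0.079, adjusted p = 6.73e-12). INHBB, an activin and inhibin subunit gene, stood at 0.595 and 0.42 CPM in Ishikawa and 258 and 263 in T-47D, with adjusted p = 1.91e-12. The inhibitory SMAD genes SMAD6 and SMAD7 were the higher in Ishikawa, with log2 fold changes of -1.87 and -2.20, and SMAD2 and SMAD4 differed by less than 2-fold.

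Genes of hormone handling were divided. Of 16 retinoid genes 5 were at least 2-fold higher in T-47D and 7 in Ishikawa (all genes: 22.9% and 23.2%). T-47D held more of the retinoic-acid receptor genes RARA (log2 fold change 1.64) and RXRA (1.65) and of CRABP2, which carries retinoic acid to them, at 7.59 and 9.01 CPM in Ishikawa and 371 and 346 in T-47D (log2 fold change 5.43, SE 0.092, adjusted p = 1.08e-11). Ishikawa held more of STRA6, a retinol uptake gene, at 4.23 and 4.93 CPM against no count in T-47D, at least 63.1-fold less. Of 14 estrogen metabolism genes 6 were at least 2-fold higher in Ishikawa and 1 in T-47D. That 1 was HSD17B1, whose enzyme reduces estrone to E2, at 10.9 and 11.7 CPM in Ishikawa against 65.6 and 64.7 in T-47D (log2 fold change 2.53, SE 0.087, adjusted p = 1.40e-09). SULT1E1, whose enzyme inactivates E2 by sulfation, had 5.44 and 3.69 CPM in Ishikawa and no count in T-47D, at least 62.9-fold less. The near-identical AKR1C1, AKR1C2 and AKR1C3 were all higher in Ishikawa, AKR1C2 at 67.1 and 62.4 CPM in Ishikawa against 0.349 and 0.0503 in T-47D, though reads may be split among them. CYP19A1, the aromatase gene, was at or near 0 in all 4 libraries.

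Genes of the estrogen target list already differed before E2, in both directions. Of 26 tested, 12 were at least 2-fold higher in T-47D and 12 in Ishikawa (all genes: 22.9% and 23.2%). The list was written with earlier results on the E2 response of these data known, so its shares describe these members only. GREB1, a growth gene and receptor cofactor, stood at 8.46 and 9.22 CPM in Ishikawa and 116 and 127 in T-47D (log2 fold change 3.78, SE 0.089, adjusted p = 1.05e-10). CXCL12, a chemokine gene, had no count in Ishikawa and 18.6 and 15 CPM in T-47D, at least 265-fold more. TFF1 was low even in T-47D, at 0.769 and 0.603 CPM against no count in Ishikawa. On the other side, MYC stood at 114 and 117 CPM in Ishikawa and 5.75 and 4.9 in T-47D (log2 fold change -4.43, SE 0.096, adjusted p = 5.77e-11), CCND1, the cyclin D1 gene, at 553 and 567 CPM in Ishikawa against 171 and 187 in T-47D (log2 fold change -1.65, SE 0.059, adjusted p = 1.97e-09), and PEG10 at 647 and 627 CPM in Ishikawa against 245 and 219 in T-47D (log2 fold change -1.46, SE 0.062, adjusted p = 7.26e-09). SGK1 and RASGEF1B were also the higher in Ishikawa, with log2 fold changes of -5.31 and -5.99. IL1RN was low in both, at 0.553 and 0.588 CPM in Ishikawa against 0.14 and 0.101 in T-47D (log2 fold change -2.21).

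The same comparison in the E2-treated libraries showed which differences were kept. Each time point was fitted on its own 4 libraries, so no library is shared between the fits. Of the 3716 genes called at least 2-fold higher in T-47D at 0 h, 90.0%, 88.7% and 87.6% were called at least 2-fold in the same direction at 2, 4 and 8 h, and of the 3769 higher in Ishikawa 89.7%, 87.1% and 86.7%. As a share of the genes called at the later time these were 89.7%, 86.6% and 85.7% on the T-47D side and 89.0%, 89.4% and 87.7% on the Ishikawa side. Between 5 and 11 genes per time and direction were called in the opposite direction. GATA3, PAX8 and SOX17 kept their pattern, with GATA3 at no more than 0.0887 CPM in any Ishikawa library and SOX17 with no count in any T-47D library at any time.

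ESR1 was among the genes whose direction differed between times. At 8 h it stood at 167 and 177 CPM in Ishikawa and 203 and 205 in T-47D (log2 fold change 0.25, SE 0.065, adjusted p = 0.00148), the reverse of 0 h. The PGR gap was narrower with E2, since Ishikawa went from 1.34 and 0.966 CPM at 0 h to 14.7 and 14.2 at 4 h while T-47D went from 667 and 666 to 1284 and 1270.0 (log2 fold change 6.46, SE 0.068, adjusted p = 1.17e-14). For MYC the log2 fold change was -4.43 at 0 h and -2.08 at 2 h. The TGFA gap was -3.58 at 0 h and -4.43 at 8 h, and for CCND1 the values were -1.65 and -1.64. These differences between times were not tested as interactions here.

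ANO1, DHRS3 and KRT13 were called in opposite directions at 0 and 8 h, and were named after their values were seen. DHRS3, a retinal reductase gene, stood at 3.13 and 3.44 CPM in Ishikawa and 7.13 and 6.91 in T-47D at 0 h (log2 fold change 1.10, SE 0.16, adjusted p = 0.000105), and at 52.2 and 57 CPM in Ishikawa against 4.08 and 4.13 in T-47D at 8 h (log2 fold change -3.73, SE 0.1, adjusted p = 4.78e-19). ANO1, a calcium-activated chloride channel gene, stood at 5.66 and 5.9 CPM in Ishikawa against 24.5 and 23.5 in T-47D at 0 h (log2 fold change 2.05, SE 0.11, adjusted p = 5.22e-08) and at 34.8 and 64.1 CPM in Ishikawa against 23.3 and 21.3 in T-47D at 8 h (log2 fold change -1.14, SE 0.16, adjusted p = 1.18e-06). The Ishikawa replicates of ANO1 lay apart at 4 h (62.3 and 35.8 CPM) and at 8 h, with replicate 1 the higher at 4 h and replicate 2 the higher at 8 h, and PEG10 did the same, at 1584 and 1053 CPM at 4 h and 1082 and 1599 CPM at 8 h. KRT13 was under 1 CPM in all 4 libraries at 0 h, where its call was lost in DESeq2 (adjusted p = 0.0746) and without Ishikawa replicate 1 (0.104) or T-47D replicate 2 (0.0528), and at 8 h reached 3.96 and 3.34 CPM in T-47D against 0.479 and 0.932 in Ishikawa.

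**Figure D4:**
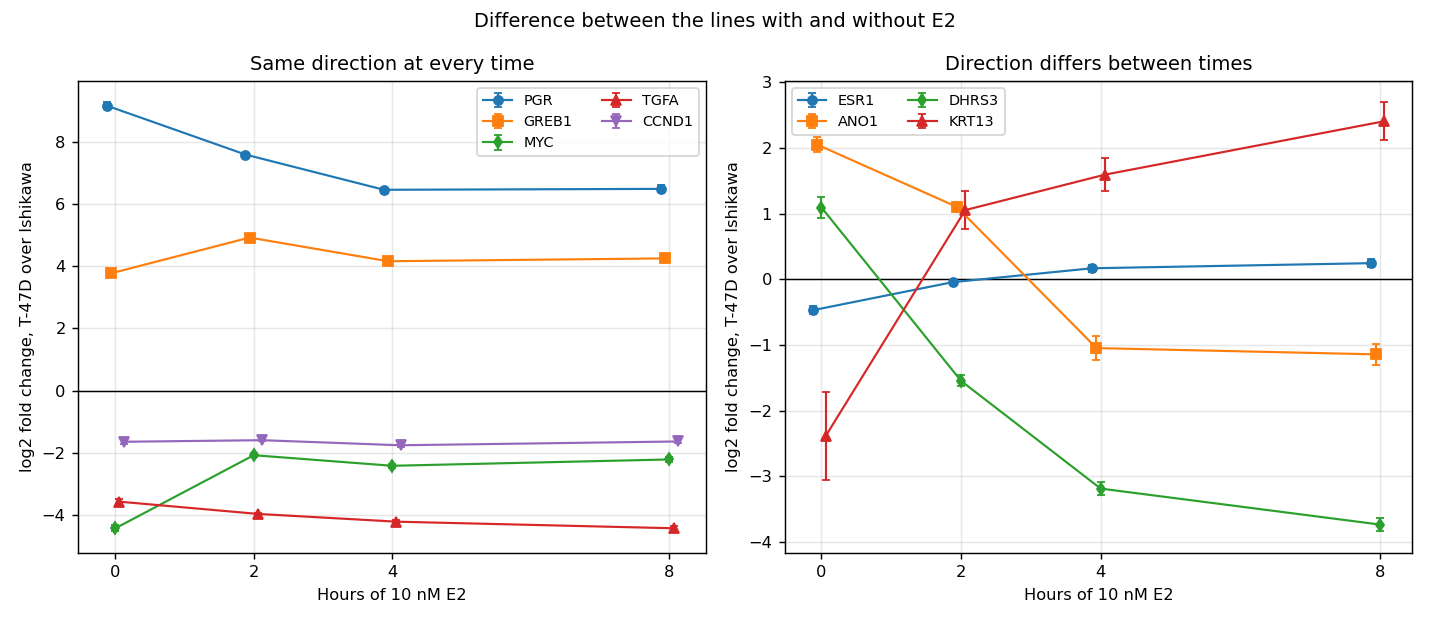
Log2 fold change of T-47D over Ishikawa (vertical) for 9 genes after 0, 2, 4 and 8 h of 10 nM E2 (horizontal, points slightly offset for legibility), with bars of 1 SE from the fit of each time point. PGR falls from 9.17 to 6.49 and MYC moves from -4.43 to -2.22 on the side they began on, whereas ESR1, ANO1, DHRS3 and KRT13 cross 0.

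Cell cycle genes that differed by 2-fold were all higher in Ishikawa. Of 30 cell cycle genes tested 9 were at least 2-fold higher in Ishikawa and none in T-47D (all genes: 23.2% and 22.9%). Their median log2 fold change was -0.80. MKI67 stood at 868 and 903 CPM in Ishikawa and 309 and 346 in T-47D (log2 fold change -1.43, SE 0.062, adjusted p = 8.15e-09), and the replication gene MCM7 at 258 and 268 CPM in Ishikawa against 109 and 103 in T-47D (log2 fold change -1.31). TOP2A, CDK1, AURKA and CCND3 leaned to T-47D by less than 2-fold. CCND2, the cyclin D2 gene, had 25.9 and 26 CPM in Ishikawa and 0 and 2 counts in T-47D, a ratio of 1073-fold (95% interval 297 to 8868), and CCNE1 stood at 34.9 and 37 CPM in Ishikawa against 8.9 and 9.2 in T-47D (log2 fold change -1.99).

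Among 24 tumour suppressor and mismatch repair genes 5 were at least 2-fold higher in T-47D and 4 in Ishikawa, near the background. RB1, the retinoblastoma gene, stood at 10.5 and 9.66 CPM in Ishikawa and 89.3 and 85.7 in T-47D (log2 fold change 3.12, SE 0.087, adjusted p = 3.15e-10). CDKN2A went the other way, at 208 and 214 CPM in Ishikawa against 48.3 and 49.2 in T-47D (log2 fold change -2.11, SE 0.061, adjusted p = 4.37e-10), while its neighbour CDKN2B stood at 14 and 13.5 CPM in Ishikawa against 102 and 114 in T-47D (log2 fold change 2.97, SE 0.087, adjusted p = 4.49e-10). The mismatch repair genes MSH6 and MLH3 differed by less than 2-fold. Expression levels do not show whether the encoded proteins are intact.

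Of 35 interferon-stimulated and antigen-presentation genes 16 were at least 2-fold higher in T-47D and 6 in Ishikawa (all genes: 22.9% and 23.2%). Their median log2 fold change was 0.79. The oligoadenylate synthetase genes OAS1, OAS2 and OAS3 had no count in Ishikawa, and OAS3 had 126 and 146 CPM in T-47D, at least 2145-fold more. MX1 stood at 1.66 and 1.89 CPM in Ishikawa and 28.2 and 47.1 in T-47D (log2 fold change 4.40, SE 0.25, adjusted p = 6.38e-08), and BST2, the tetherin gene, at 14.1 and 13.3 CPM in Ishikawa against 178 and 191 in T-47D (log2 fold change 3.75, SE 0.077, adjusted p = 4.09e-11). IFITM3 went the other way, at 64.9 and 69.4 CPM in Ishikawa against 6.06 and 6.28 in T-47D (log2 fold change -3.44, SE 0.095, adjusted p = 3.02e-10), as did IFIT2 (log2 fold change -2.44) and IFI44L (-3.52). ISG15 and IFIT1 did not pass the test, with log2 fold changes of 0.11 and 0.29, but without T-47D replicate 1 they became 0.48 (adjusted p = 0.0451) and 0.58 (adjusted p = 0.00432, edgeR), and without Ishikawa replicate 2 IFIT1 became 0.56 (adjusted p = 0.0213). Ishikawa therefore had counts for some interferon-stimulated genes and none for others.

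In antigen presentation TAP1 and TAP2, the peptide transporter genes, had no count in Ishikawa, and stood in T-47D at 5.26 and 7.44 CPM for TAP1 and 4.92 and 3.12 CPM for TAP2. HLA-B stood at 2.06 and 2.29 CPM in Ishikawa and 188 and 212 in T-47D (log2 fold change 6.52, SE 0.11, adjusted p = 8.78e-12), whereas HLA-C differed by less than 2-fold, at 17.4 and 16.5 CPM in Ishikawa against 28.3 and 27.6 in T-47D. HLA alleles can differ from the reference sequence in ways that decide which reads align, so the values of these genes are uncertain. B2M, the invariant light chain gene, stood at 165 and 155 CPM in Ishikawa against 274 and 282 in T-47D (log2 fold change 0.79), and HLA-DRA had no count in any of the 4 libraries.

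Secreted products and enzymes separated the lines at single genes. Of 17 mucin and secretory genes 9 were at least 2-fold higher in Ishikawa and 4 in T-47D (all genes: 23.2% and 22.9%). MUC1 stood at 5.59 and 7.01 CPM in Ishikawa and 827 and 937 in T-47D (log2 fold change 7.13, SE 0.11, adjusted p = 6.50e-12), and CLU, the clusterin gene, at 18.6 and 17.3 CPM in Ishikawa against 956 and 915 in T-47D (log2 fold change 5.70, SE 0.068, adjusted p = 1.46e-12). The protease inhibitor gene SLPI went the other way, at 128 and 134 CPM in Ishikawa against 0.373 and 0.352 in T-47D (log2 fold change -8.49, SE 0.12, adjusted p = 4.71e-12), with WFDC2, the gene of the tumour marker HE4, at 40.7 and 40.9 CPM in Ishikawa against 0.419 and 0.151 in T-47D (log2 fold change -7.12, SE 0.21, adjusted p = 5.12e-10). Among 19 S100 and annexin genes 11 were at least 2-fold higher in T-47D and 4 in Ishikawa (all genes: 22.9% and 23.2%). S100A16 and ANXA6 were the higher in T-47D, by log2 fold changes of 4.07 and 3.56, and ANXA1 the higher in Ishikawa at 305 and 302 CPM in Ishikawa against 12.7 and 15.7 in T-47D (log2 fold change -4.42, SE 0.094, adjusted p = 5.10e-11).

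Of 24 glutathione and xenobiotic genes 10 were at least 2-fold higher in Ishikawa and 6 in T-47D (all genes: 23.2% and 22.9%). GSTP1 (chr11:67351213-67354127 on hg19), whose promoter is shown above, had 331 and 329 CPM in Ishikawa and 0.14 and 0.0503 in T-47D (log2 fold change -11.69, SE 0.14, adjusted p = 1.58e-12). GPX1, a glutathione peroxidase gene, had 191 and 194 CPM in Ishikawa and no count in T-47D, at least 2646-fold less. SLC7A11, the cystine importer gene that feeds glutathione synthesis, stood at 494 and 449 CPM in Ishikawa against 3.47 and 3.34 in T-47D (log2 fold change -7.11, SE 0.09, adjusted p = 1.86e-12), and GCLM, a subunit gene of the first enzyme of that synthesis, at 125 and 108 CPM in Ishikawa against 8.22 and 9.85 in T-47D (log2 fold change -3.69, SE 0.11, adjusted p = 5.45e-10). The GSTM genes and MGST1 were the higher in T-47D, GSTM3 at 63.5 and 66.9 CPM in Ishikawa against 609 and 608 in T-47D (log2 fold change 3.22, SE 0.058, adjusted p = 1.62e-11), and the GSTM copies resemble each other closely enough to share reads. NFE2L2, the NRF2 factor gene, differed by less than 2-fold (log2 fold change -0.30).

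**Figure D5:**
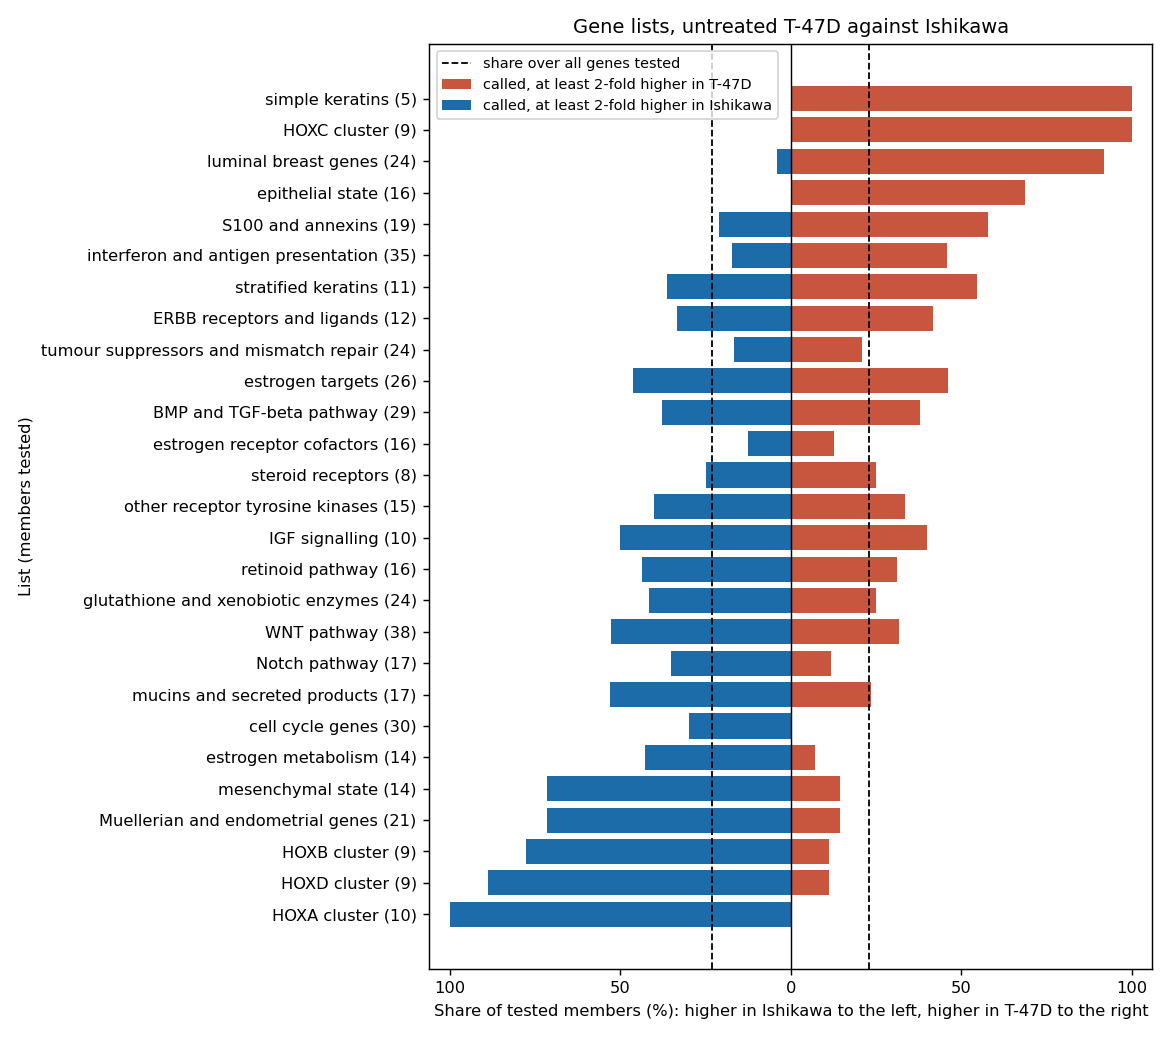
For 27 gene lists, the share of tested members called at least 2-fold higher in T-47D (right) or Ishikawa (left), with the number tested in brackets and dashed lines at the share over all genes tested (22.9% and 23.2%). Simple keratins, HOXC and luminal breast genes lie almost wholly to the right, and HOXA, HOXD, HOXB and Müllerian genes mostly to the left.

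The largest single differences were genes at or near 0 in 1 line. With at least 1000 counts on average over the 4 libraries, the genes furthest toward Ishikawa were CDH6, a cadherin gene of kidney and Müllerian epithelium, with 816 and 766 CPM and no count in T-47D (at least 10887-fold less), then PCDH9, SLIT2, MSN, GDA, GPX1, MEST, INA, SP8 and KLHL14, each likewise without a count in T-47D. The genes furthest toward T-47D included SERPINA6, the corticosteroid-binding globulin gene, with 340.1 and 301 CPM and no count in Ishikawa (at least 5056-fold more), PIP, KYNU, OAS3, H2AFJ, and the noncoding DSCAM-AS1 and GATA3-AS1. MGP, the matrix Gla protein gene, had 0 and 2 counts in Ishikawa and 1108 and 945 CPM in T-47D. The order within these sets rests on fitted values that depend on how a count of 0 is treated.

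Genes with 3 counts or fewer in each library of 1 line and 100 or more in each library of the other numbered 189 on the T-47D side and 326 on the Ishikawa side. Of the 189, 132 had 3 counts or fewer in all 6 E2-treated Ishikawa libraries, and none reached 100 in any of them. Of the 326, 236 had 3 counts or fewer in all 6 treated T-47D libraries, and COL27A1, a collagen gene, was the single one to reach 100 in any. Most were protein-coding, 151 and 296 respectively. Genes near 0 in 1 line at 0 h thus stayed under 100 counts there through 8 h of E2, COL27A1 excepted.

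Genes that every cell uses were not level between the lines either. EEF1A1, a translation elongation factor gene, stood at 13896 and 13450.0 CPM in Ishikawa and 5989 and 5919.6 in T-47D (log2 fold change -1.20, SE 0.037, adjusted p = 7.12e-10). ACTB, the β-actin gene, was the higher in T-47D, at 4437 and 4643 CPM in Ishikawa against 6601 and 6468 in T-47D (log2 fold change 0.53, SE 0.041, adjusted p = 7.16e-07). GAPDH, often used as a reference gene, stood at 4949 and 5032 CPM in Ishikawa against 1509 and 1498 in T-47D (log2 fold change -1.73, SE 0.041, adjusted p = 1.01e-10). AHNAK, a large scaffold protein gene, stood at 351 and 353 CPM in Ishikawa against 5666 and 6464 in T-47D (log2 fold change 4.11, SE 0.066, adjusted p = 8.22e-12).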

How the data were processed

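RNA from 16 cultures was sequenced, and the 4 libraries of the 0 h time point were compared. The authors aligned the reads to hg19, counted them per gene and deposited raw counts for each sample, and the submitters' processing notes name HISAT2, SAMtools, featureCounts and DESeq2 without versions. How strand and reads with several alignments were handled is not given in the sources used here. From the deposited counts of 26364 symbols, 16239 genes passed filterByExpr and were tested between cell lines with edgeR 4.0.16 (TMM scaling, quasi-likelihood test, R 4.3.3) and Benjamini-Hochberg adjustment. Calls needed an adjusted p under 0.05 and, where stated, at least 2-fold. Samples were grouped by their labels. Totals were 41223813 to 45672920 counts. The fit was tested on simulated data first. Positions and exon lengths came from GENCODE on GRCh37 and matched 23857 symbols (90.49%). Folds against a line without counts used a floor of 3 counts per library. Ratios carry 95% exact intervals that treat each count as independent. DESeq2 1.42.0, other scalings, filters, fits and omitted libraries were alternatives.

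The members and lists were chosen with earlier results of these data known. The rule for named genes took the steroid receptors, a short set of lineage and estrogen-response genes, and the largest differences in each list. Genes named beyond it were chosen after their values were seen. Same-numbered replicates did not show pairing by design, so the replicate number was not used in the fit. Figures used matplotlib 3.10.9. Results for a few genes are not reported here.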

Additional observations from a re-analysis of the deposited data

How the results depend on the processing

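The number of genes called between the lines at 0 h was 13213, and it was 12478 with DESeq2, 13236 with RLE scaling, 11934 at an adjusted p under 0.01, 12765 with counts divided by 2 and 13640 with all 16 libraries in the fit. Leaving out each library in turn gave 12419 to 13098. With at least 10 counts required in every library, 2428 genes were called at least 2-fold higher in Ishikawa in place of 3769, since that filter tests 13457 genes and removes those near 0 in 1 line. Upper-quartile scaling moved the median log2 fold change to -0.10 and library totals without scaling to -0.13. ESR2, ISG15 and IFIT1 did not pass and changed sign when a library was left out. ESR2 ranged from -0.14 to 1.09, ISG15 from -0.35 to 0.48 and IFIT1 from -0.038 to 0.58, and the cause was not tested. Of 2819 values of 207 named genes under these alternatives, 2793 kept their direction and their side of the threshold. A value exists only where the alternative tested the gene. Genes near 0 in 1 line therefore gave none under the filter of at least 10 counts in every library. With the replicate block 13652 genes were called. The 2 same-numbered pairs had a correlation of deviations of 0.187, and nothing in the labels ties them, so they share only a number.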

Other observations

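In a few stretches of the genome most tested genes lay on the same side. The median log2 fold change of a chromosome ran from -0.74 on chromosome 18, where 41.4% of 222 tested genes were at least 2-fold higher in Ishikawa, to 0.49 on chromosome 20, where 30.5% of 423 were at least 2-fold higher in T-47D. Among 267 windows of 10 Mb with at least 20 tested genes, the lower and upper quartiles of the medians were -0.50 and 0.35. On chromosome 12, the window from 0 to 10 Mb held 105 tested genes with a median of -1.49, 65.7% of them at least 2-fold higher in Ishikawa. CCND2, GAPDH and FOXM1 lie there, FOXM1 with 243 and 263 CPM in Ishikawa and 97.6 and 100.3 in T-47D (log2 fold change -1.36, SE 0.063, adjusted p = 1.34e-08).

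The window from 140 to 150 Mb on chromosome 5 had the highest median, 1.25 over 110 genes, and holds the clustered protocadherin genes, which encode adhesion proteins best known from neurons. All 15 tested PCDHA genes and 16 of 18 tested PCDHB genes were at least 2-fold higher in T-47D, with medians of 4.07 and 2.71. Of 23 PCDHG genes 14 were at least 2-fold higher in T-47D and 1 in Ishikawa (all genes: 22.9% and 23.2%). Summed over the PCDHB genes, Ishikawa held 40.8 and 37.2 CPM and T-47D 363 and 365. PCDHB5 stood at 2.45 and 2.33 CPM in Ishikawa and 59.5 and 58.6 in T-47D (log2 fold change 4.63, SE 0.1, adjusted p = 7.60e-11). The PCDHA and PCDHG genes each share their last exons within the cluster, so reads may be split among them. These windows and families were chosen after their values were seen.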
